A study of Mus musculus with 6 samples.

Results

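Lif and Lcn2 were chosen by their signal in the comparison described here, as 2 of the mRNAs that were far brighter in Apcfl/fl hepatocellular carcinoma (HCC) than in Apc+/+ liver. They are 2 of 2114 genes that could be named among the mRNA probes of the authors' table of called probes, on an array of 59631 probes. Each gene had 1 named probe, Lif through the transcript NM_001039537 and Lcn2 through NM_008491. Their difference between the groups is therefore given as a description, with no test.

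Leukaemia inhibitory factor, encoded by Lif, is a secreted cytokine of the interleukin-6 family. Its members bind a receptor that shares the gp130 chain, activate JAK kinases and the transcription factor STAT3, and in hepatocytes switch on acute-phase genes. Lipocalin-2, encoded by Lcn2, is a secreted protein that binds iron-loaded siderophores, is stored in neutrophil granules, and is made by hepatocytes and other epithelia when IL-1, NF-κB or STAT3 signalling is active.

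RNA came from the liver of C57Bl/6 mice aged 12 months. The 3 Apcfl/fl arrays held liver with Wnt/β-catenin dependent HCC from mice homozygous for a floxed Apc allele that is hypomorphic, which means of reduced function. The 3 Apc+/+ arrays held liver of mice with the wild-type gene and no HCC. The labels name no treatment for either group, and in bulk tissue fewer cells of a type and less RNA per cell cannot be told apart. No named probe read Apc, so the genotype was not checked here. The labels do not say whether the replicates of a group came from separate mice. Replicates 1 and 2 of Apcfl/fl HCC lay within technical noise of each other and were counted as 1 sample. Their chi-square, averaged over probes, was 0.774, and set against replicate 3 they gave 14.9 and 15.1. Apc+/+ replicates 2 and 3 were also close, at 1.99, against 6.37 and 7.56 to Apc+/+ replicate 1. They stayed above the limit of 1 for averaging and were kept as separate samples. Thus 2 Apcfl/fl samples stood against 3 Apc+/+ samples. On these arrays 50.8% to 82.8% of probes were well above background, with Apc+/+ replicate 2 lowest, and no probe was saturated. The brightest of 20 negative-control probes, which match no mouse transcript by design, had a mean normalised log2 signal of 5.50.

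Because the 2 genes stood apart in the same direction, the RefSeq sequence before each start site is shown with motif matches in capitals. Lif lies on the plus strand and Lcn2 on the minus strand of the GRCm38.p6 assembly, and each stretch ends at the last base before the annotated start of transcription.

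Lif, chr11:4257318-4257567, plus strand: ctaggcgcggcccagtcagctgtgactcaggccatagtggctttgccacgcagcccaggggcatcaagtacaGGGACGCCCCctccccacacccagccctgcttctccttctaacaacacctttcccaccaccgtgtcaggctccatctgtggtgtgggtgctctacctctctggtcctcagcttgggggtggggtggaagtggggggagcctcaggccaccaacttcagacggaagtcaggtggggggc
Lcn2, chr2:32387740-32387989, minus strand: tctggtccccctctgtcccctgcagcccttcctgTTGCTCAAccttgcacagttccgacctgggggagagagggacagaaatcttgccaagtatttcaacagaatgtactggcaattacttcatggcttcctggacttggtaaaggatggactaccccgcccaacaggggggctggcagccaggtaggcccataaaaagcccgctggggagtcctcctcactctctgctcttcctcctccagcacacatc

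The capitals in the Lif sequence mark a match to the NF-κB consensus, 178 to 169 bases before the start. The capitals in the Lcn2 sequence mark a match to the C/EBP motif TTNNGNAA, 216 to 209 bases before the start. This match reads on the strand opposite to the one shown. The 4 motifs were searched on both strands, and each stretch holds a single match, with no overlap between motifs. Of 32851 RefSeq promoter windows of the same length, 7.25% held an NF-κB match and 36.8% a C/EBP match. The STAT motif TTCNNNGAA, held by 7.02% of the windows, and the TCF/LEF motif CTTTGA, held by 13.8%, had no match in either stretch. G and C made up 63.6% of the Lif stretch and 56.4% of the Lcn2 stretch, against a median of 52.4% over all windows. No binding was measured here.

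Lif was bright in every Apcfl/fl array and close to background in every Apc+/+ array. Its normalised log2 signal was 10.82, 10.82 and 11.63 on Apcfl/fl replicates 1, 2 and 3 and 4.50, 4.20 and 4.01 on Apc+/+ replicates 1, 2 and 3. The groups did not overlap, and the lowest Apcfl/fl array lay 6.31 above the highest Apc+/+ array on the log2 scale. Of all tested probes, 17.4% likewise had every Apcfl/fl array above every Apc+/+ array. Lif averaged 11.23 ± 0.58 (SD, n = 2) over the tumour samples against 4.24 ± 0.25 (SD, n = 3) over normal liver, a log2 difference of 6.99 or a fold of 127.

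The size of the Lif difference is limited by its low signal in normal liver. Before normalisation the processed intensity of the Lif probe ranged from 1754 to 2801 on the Apcfl/fl arrays and from 11.6 to 28.4 on the Apc+/+ arrays. The Lif spot was well above background on all 3 Apcfl/fl arrays and on 2 of the 3 Apc+/+ arrays, with replicate 2 below. Each Apc+/+ value of Lif was also lower than the brightest negative-control probe, by 1.0 to 1.49 on the log2 scale. With the level of that control probe in place of the Apc+/+ mean, the fold of Lif was 53.0. With normexp background correction the log2 difference was 4.88.

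Lcn2 was among the brightest probes of the Apcfl/fl arrays and was clearly measured in Apc+/+ liver too. Its normalised log2 signal was 15.32, 15.22 and 14.59 on Apcfl/fl replicates 1, 2 and 3 and 8.30, 7.57 and 7.33 on Apc+/+ replicates 1, 2 and 3. The groups did not overlap, as for 17.4% of tested probes in this direction, with a gap of 6.29 between the nearest arrays. Lcn2 averaged 14.93 ± 0.48 (SD, n = 2) over the tumour samples against 7.74 ± 0.51 (SD, n = 3) over normal liver, a log2 difference of 7.20 or a fold of 147. The processed intensity ranged from 25769 to 46095 on the Apcfl/fl arrays and from 176 to 381 on the Apc+/+ arrays, and the spot was well above background on all 6. Every Apc+/+ value of Lcn2 lay above the brightest negative-control probe, by 1.83 to 2.80 on the log2 scale.

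**Figure D1:**
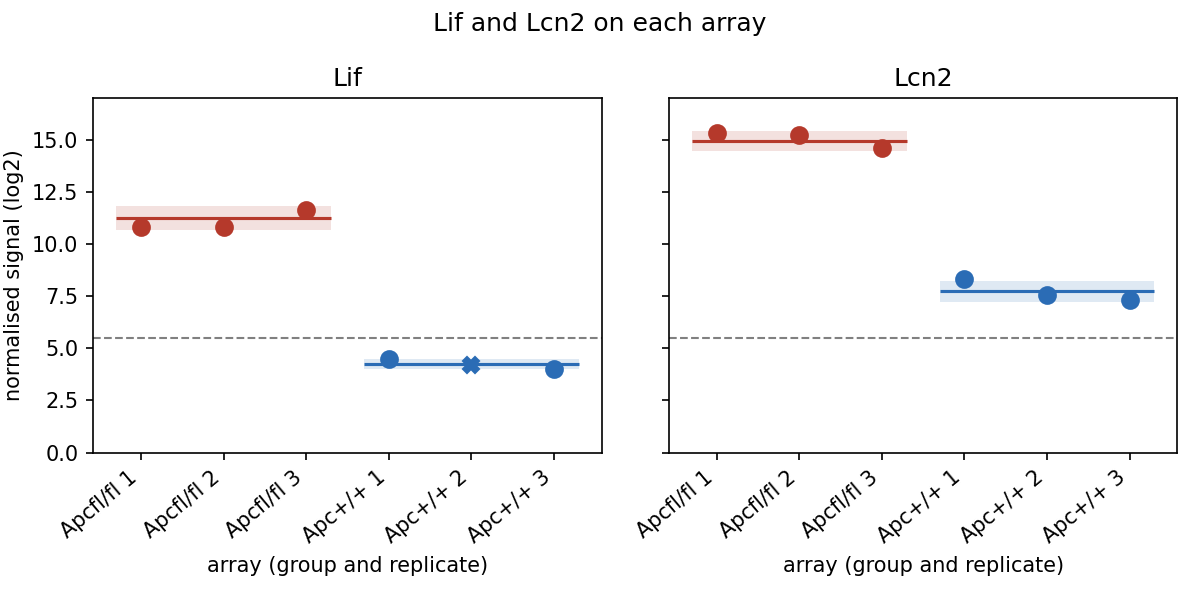
Normalised log2 signal of the Lif and Lcn2 probes on each of the 6 arrays, with Apcfl/fl HCC in red and Apc+/+ liver in blue. Circles are spots well above background and the cross is a spot that was not, lines and bands are the group mean and SD over 2 and 3 samples, and the dashed line at 5.50 is the brightest negative-control probe, which Lif lies below and Lcn2 above in Apc+/+ liver.

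Both measured differences were among the largest on the array. Of 45640 tested probes, Lcn2 ranked 11 and Lif ranked 14 by the size of the rise in Apcfl/fl HCC. Among the 2280 mRNA probes of the authors' table they ranked 4 and 7. The ranks of Lif are not fixed, because its difference was 5.73 with the Apc+/+ mean set to the brightest negative-control level. Within each array the Lif probe was brighter than 90.7% to 92.8% of all probes in Apcfl/fl HCC and than 29.8% to 35.8% in Apc+/+ liver. The Lcn2 probe was brighter than 97.5% to 98.1% in Apcfl/fl HCC and than 71.5% to 79.6% in Apc+/+ liver.

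The 2 genes were ordered differently within the Apcfl/fl group. Lif was highest on Apcfl/fl replicate 3, where it lay 0.81 above the mean of replicates 1 and 2 on the log2 scale. Lcn2 was lowest on the same array, at -0.68 relative to that mean. Shifts of at least those sizes between replicate 3 and the mean of replicates 1 and 2 were seen for 22.8% and 28.1% of tested probes. Within the Apc+/+ group both genes were highest on replicate 1, Lif by 0.40 and Lcn2 by 0.85 above the mean of replicates 2 and 3. Apc+/+ replicate 1 was the only Apc+/+ array that shared the first part of its scanner barcode with all Apcfl/fl arrays. That part is called the slide row here, a reading that the sample labels do not give. Against Apc+/+ replicate 1 alone the log2 difference was 6.72 for Lif and 6.63 for Lcn2.

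To place Lif in its pathway, the other genes of the interleukin-6 family and of JAK-STAT signalling were examined by limma, with an adjusted p below 0.05 and a fold of at least 2 as the threshold. Names exist almost only for probes from the authors' own calls on the same arrays. The named genes were thus picked because they differed, and their direction is no independent evidence. Over all lists of the LIF and lipocalin pathways, 30 of 128 genes had a name, and 28 remained without Lif and Lcn2. Of these 28, 5 were higher and 1 was lower past the threshold, with a median log2 difference of 0.72. Of all tested probes 1.03% were called higher and 0.896% lower, with a median of 0.06. Of the 2280 mRNA probes of the authors' table, which were selected in the same way as most of the 28, 12.1% were called higher and 7.32% lower, with a median of 1.05.

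The calls rested on every Apc+/+ array and on Apcfl/fl replicate 3, without which 1 gene was higher and 2 were lower. Without 1 Apc+/+ array, whichever it was, none of the 28 genes passed by limma. Unadjusted, 22 to 24 had a p below 0.05 by limma with a fold of at least 2, as did 4326 to 5749 of all 45640 tested probes. Most of the 28 had been called by the authors at a similar unadjusted threshold on these arrays, so that count is no support. This loss was not particular to these genes. At most 1 of all 45640 tested probes then passed, against 878 with every array in use. With the slide row as a block none of the 28 passed either, and 0 of all tested probes did. That contrast set the Apcfl/fl samples against Apc+/+ replicate 1 alone, the only Apc+/+ array in their slide row.

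Among ligands other than Lif, receptors and JAK-STAT relays, 4 genes were named, Ctf1, Lifr, Jak2 and Stat3. None passed the threshold by limma. All 4 had a negative log2 difference and an unadjusted p below 0.05 by limma, a level at which most named genes had been selected. Cardiotrophin 1 (Ctf1), another ligand of the LIF receptor, had log2 signals of 9.76, 9.75 and 9.82 on the tumour arrays and averaged 11.22 ± 0.28 (SD, n = 3) in normal liver (difference -1.43, SE 0.24, adjusted p 0.0604 by limma). Lifr, which encodes the LIF receptor chain that pairs with gp130, measured 13.63, 13.49 and 13.05 against 14.27, 14.62 and 14.73 (difference -1.23, SE 0.27, adjusted p 0.0965 by limma). Both genes differed in the direction opposite to Lif. Most named genes had been called different by the authors on these arrays, which favours a difference.

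The kinase Jak2, which relays signals from these receptors, differed by -1.08 (SE 0.21, adjusted p 0.0775 by limma). Stat3, the transcription factor downstream of gp130, had log2 signals of 7.52, 7.50 and 6.47 in Apcfl/fl HCC and of 8.25, 8.58 and 8.66 in Apc+/+ liver (difference -1.51, SE 0.37, adjusted p 0.119 by limma). Its lowest value was on Apcfl/fl replicate 3, the array with the highest Lif, an order that compares only 2 Apcfl/fl samples. These are RNA levels, and activation of STAT3 protein was not measured on the arrays.

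Feedback inhibitors of JAK-STAT signalling, which are induced by the pathway and restrain it, were named for 3 of 8 genes. Socs1 rose 4.19-fold, with log2 signals of 9.96, 9.91 and 9.45 in Apcfl/fl HCC and of 7.42, 7.73 and 7.73 in Apc+/+ liver (log2 difference 2.07, SE 0.24, adjusted p 0.0354 by limma). Socs3, the main inhibitor of gp130 signalling, measured 14.43, 14.50 and 13.57 against 12.65, 12.52 and 12.49. All its Apcfl/fl arrays lay above all Apc+/+ arrays, as for 17.4% of tested probes. Its difference of 1.46 (SE 0.31, adjusted p 0.0954) did not pass the threshold by limma. Socs2, an inhibitor of growth hormone signalling, differed by -1.23 (SE 0.50, adjusted p 0.289 by limma).

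Acute-phase genes, the liver genes that respond to IL-6 family cytokines and IL-1, were named for 9 of 28. Of these, 2 rose past the threshold, none fell by limma, and the log2 difference was positive for 6 and negative for 3, with a median of 1.19. Cd14, the coreceptor for lipopolysaccharide, rose in log2 signal by 3.16, from 5.38, 4.99 and 5.27 in Apc+/+ liver to 8.22, 8.26 and 8.51 in Apcfl/fl HCC (SE 0.22, adjusted p 0.0167 by limma). In Apc+/+ liver Cd14 averaged less than the brightest negative control, which leaves the size of that rise uncertain. Orm2, an orosomucoid, rose by 1.74, from 14.37, 14.26 and 14.27 to 15.72, 15.90 and 16.28 (SE 0.22, adjusted p 0.0398 by limma).

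The remaining acute-phase genes did not pass the threshold and went both ways. Orm3 had the largest difference, 4.16 (SE 1.01, adjusted p 0.12 by limma), but also a wide spread, with 11.95 and 11.92 on Apcfl/fl replicates 1 and 2, 9.97 on replicate 3, 8.45 on Apc+/+ replicate 1 and 5.90 and 6.02 on the other two. Steap4, a metalloreductase, was 11.38 and 11.32 on Apcfl/fl replicates 1 and 2 but 8.55 on replicate 3, against 7.47 to 7.86 in Apc+/+ liver. For Orm3 and Steap4, as for Lcn2, replicate 3 was the Apcfl/fl array nearest to Apc+/+ liver. Lbp, which encodes a lipopolysaccharide-binding protein, and the metallothionein gene Mt2 differed by 0.84 and 1.19 (adjusted p 0.296 and 0.133 by limma). The pentraxins Crp and Apcs and the serpin Serpina3k differed by -1.23, -2.33 and -2.20, with adjusted p-values by limma of 0.0806, 0.058 and 0.0605. Orm2 and Orm3, and Serpina3k with its relatives, have close paralogues that a probe may also read.

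The NF-κB and IL-1/TNF pathway, which includes inducers of Lcn2, was named for 6 of 31 genes. Icam1, an adhesion molecule for leukocytes, rose 2.69-fold, from 9.11, 9.20 and 9.45 in Apc+/+ liver to 10.61, 10.56 and 10.78 in Apcfl/fl HCC on the log2 scale (adjusted p 0.0498 by limma, at the limit of the threshold). The NF-κB subunit gene Nfkb2 and the inhibitor gene Nfkbie, itself a target of the pathway, had differences of 1.68 (SE 0.32, adjusted p 0.0783) and 1.51 (SE 0.34, adjusted p 0.102) by limma. Tnf differed by 1.32 (SE 0.38, adjusted p 0.167 by limma). Cxcl5, a neutrophil chemokine, differed by 1.11 but lay below the brightest negative-control probe on all 6 arrays. Il1rap, the accessory chain of the IL-1 receptor, had the single negative difference, -1.07 (SE 0.23, adjusted p 0.0975 by limma).

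Genes of iron handling, the process in which lipocalin-2 takes part, were named for 4 members besides Lcn2 in a list of 17. Slc11a2, which encodes the iron transporter DMT1, rose 3.39-fold. Its log2 signal was 11.32, 11.29 and 11.36 in Apcfl/fl HCC and 9.76, 9.52 and 9.43 in Apc+/+ liver (log2 difference 1.76, SE 0.20, adjusted p 0.0335 by limma). Hamp, which encodes the iron hormone hepcidin and is known to respond to IL-6 through STAT3, measured 15.78, 15.66 and 16.11 against 17.56, 18.56 and 18.36 (difference -2.24, SE 0.37, adjusted p 0.0595 by limma). The close paralogue Hamp2 differed by -2.02 (SE 0.47, adjusted p 0.111 by limma). The transferrin receptor gene Tfrc, which is named on the array as a reference gene and so was not selected for a difference, overlapped between the groups, with 11.81 to 12.40 against 11.31 to 11.86 (difference 0.60, SE 0.30, adjusted p 0.372 by limma). The lipocalin receptors Slc22a17 and Lrp2 were not named and are not analysed here.

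Of the 24 lipocalin genes listed, 4 were named besides Lcn2, among them Orm2 and Orm3 given above. Mup3, a major urinary protein secreted by hepatocytes, fell past the threshold, with a log2 difference of -1.35 (SE 0.18, adjusted p 0.0427 by limma), from 18.20, 18.26 and 18.31 in Apc+/+ liver to 16.87, 16.84 and 16.96 in Apcfl/fl HCC. Mup21 differed by -2.80 (SE 0.47, adjusted p 0.0605 by limma). The Mup genes are near-identical, and their probes may read several of them.

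**Figure D2:**
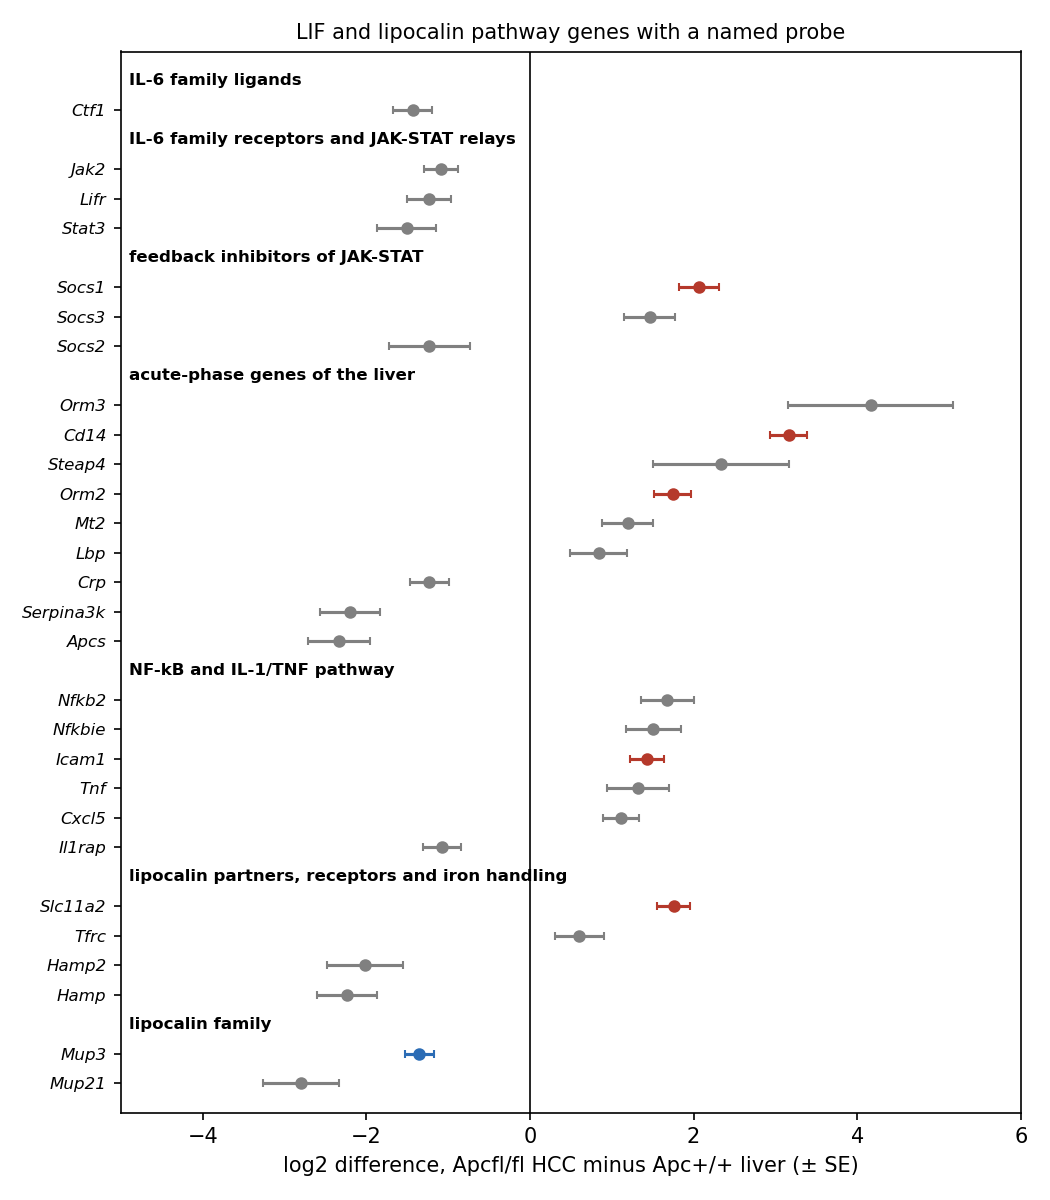
Log2 difference of normalised signal, Apcfl/fl HCC minus Apc+/+ liver, with its standard error from limma for the 28 named pathway genes other than Lif and Lcn2, each shown once under the first list that holds it. Red points were higher and blue points lower past the adjusted threshold and grey points were not called, so that 5 genes are red and 1 is blue; the differences of Lif (6.99) and Lcn2 (7.20) lie outside the plotted range.

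Apcfl/fl replicate 3 differed from replicates 1 and 2 across the 28 genes in both directions. It lay nearer to Apc+/+ liver, as Lcn2 did, for 16 genes and farther from it, as Lif did, for 12. For 27 of the 28 the groups did not overlap, counting both directions, the exception being Tfrc. Most of these genes were named because the authors had called them different, which favours such separation. Of all tested probes, 17.4% had every Apcfl/fl array above every Apc+/+ array. The share in the other direction was not computed, so the 27 of 28 have no matching share to be set against.

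Markers of other cells in liver were examined because they may carry these transcripts. Of 15 neutrophil markers only Prtn3, a granule protease, was named. Prtn3 rose 19.9-fold, with log2 signals of 13.11, 13.11 and 13.49 in Apcfl/fl HCC and of 8.75, 9.12 and 9.08 in Apc+/+ liver (adjusted p 0.0125 by limma). Like Lif and unlike Lcn2 it was highest on Apcfl/fl replicate 3, by 0.38 above the mean of replicates 1 and 2. This order compares only 2 Apcfl/fl samples. The part of neutrophils in the Lcn2 signal was not tested, and the further neutrophil markers, such as S100a8, Mpo and Ly6g, are not analysed here.

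Of 15 macrophage markers 2 were named and neither passed the threshold by limma, though both had an unadjusted p below 0.05. Adgre1 differed by 1.64 (adjusted p 0.17) and the Kupffer cell receptor gene Marco by -3.78 (adjusted p 0.0789), both by limma. Marco was 5.49 and 5.05 on Apcfl/fl replicates 1 and 2, below the brightest negative control, but 7.73 on replicate 3. Of 8 genes of antigen presenting cells 3 were named, Cd74 at 1.57, H2-Ab1 at 1.29 and Flt3 at -1.51, with none past the threshold by limma and all 3 below an unadjusted p of 0.05. The stellate cell gene Lrat and the endothelial gene Pecam1, each the single named gene of its list, differed by -1.52 and -1.46 without passing the threshold. Their Apcfl/fl means of 5.41 and 5.55 lay just below and just above the brightest negative control. The sizes of the Marco, Lrat and Pecam1 differences are therefore uncertain. No T, NK or B cell marker was named.

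Epithelial and bile duct genes were named for 3 of 9. Ly6d rose by 7.43 (adjusted p 0.0206) and Spp1 by 5.0 (adjusted p 0.0351) on the log2 scale by limma, although 1 of the 4 dimmer Spp1 probes missed the threshold (1.87, adjusted p 0.0536). The probes of the progenitor gene Prom1 disagreed, the brighter one differing by 2.85 (adjusted p 0.117) and the other, of nearly equal brightness, passing the threshold by limma at 3.22 (adjusted p 0.0306). The brighter Prom1 probe was well above background on 1 of 3 Apc+/+ arrays, and its Apc+/+ mean of 3.85 lay below the brightest negative control. The other Prom1 probe averaged 5.24 over all arrays, also below that control. The sizes of both Prom1 differences are therefore uncertain. Hepatocyte genes were named for 4 of 12 and all 4 had a negative difference. Cyp2e1 fell by 4.06 (adjusted p 0.0194 by limma), and Apoa1, Cebpa and Cps1 differed by -2.38, -1.56 and -1.21 without passing the threshold. Apoa1 still reached log2 signals of 13.56 to 14.62 in Apcfl/fl HCC, so this hepatocyte transcript was abundant in both groups of liver RNA. The part of these cell types in the Lif and Lcn2 signals was not tested.

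The genes whose profile over the 6 arrays was most like those of Lif and Lcn2 were sought among named genes well above background on all 6 arrays. Likeness was the root mean square distance between log2 profiles, each centred on its own mean, and is given as a description. The arrays share 2 groups and 1 pair of near-identical arrays, so any large rise in Apcfl/fl HCC scores as alike. Among 1882 genes the nearest to Lif was Arhgap22, at a distance of 0.366 and a log2 difference of 6.33. It shared with Lif the highest value on Apcfl/fl replicate 3, 0.45 above the mean of replicates 1 and 2. Ly6d did so too, by 0.37, while Lcn2, Tff2 and Ccn5 were lowest on that array within the group. Lcn2 came next at 0.569, followed by Ly6d at 0.589, the trefoil peptide gene Tff2 at 0.667 and the secreted matricellular protein gene Ccn5 at 0.794.

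Among 1881 genes the nearest to Lcn2 was Cbr3, which encodes a carbonyl reductase, at a distance of 0.389 and a log2 difference of 7.83. It shared with Lcn2 the lowest Apcfl/fl value on replicate 3, at -1.10 relative to the mean of replicates 1 and 2, and the highest Apc+/+ value on replicate 1. Tff2 and Ccn5 were also lowest on Apcfl/fl replicate 3, at -0.88 and -0.27. Ly6d at 0.507, Tff2 at 0.632, Arhgap22 at 0.716 and Ccn5 at 0.977 followed. Lif was not a candidate here because its probe was not well above background on all 6 arrays. The 2 lists thus share Arhgap22, Ly6d, Tff2 and Ccn5.

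**Figure D3:**
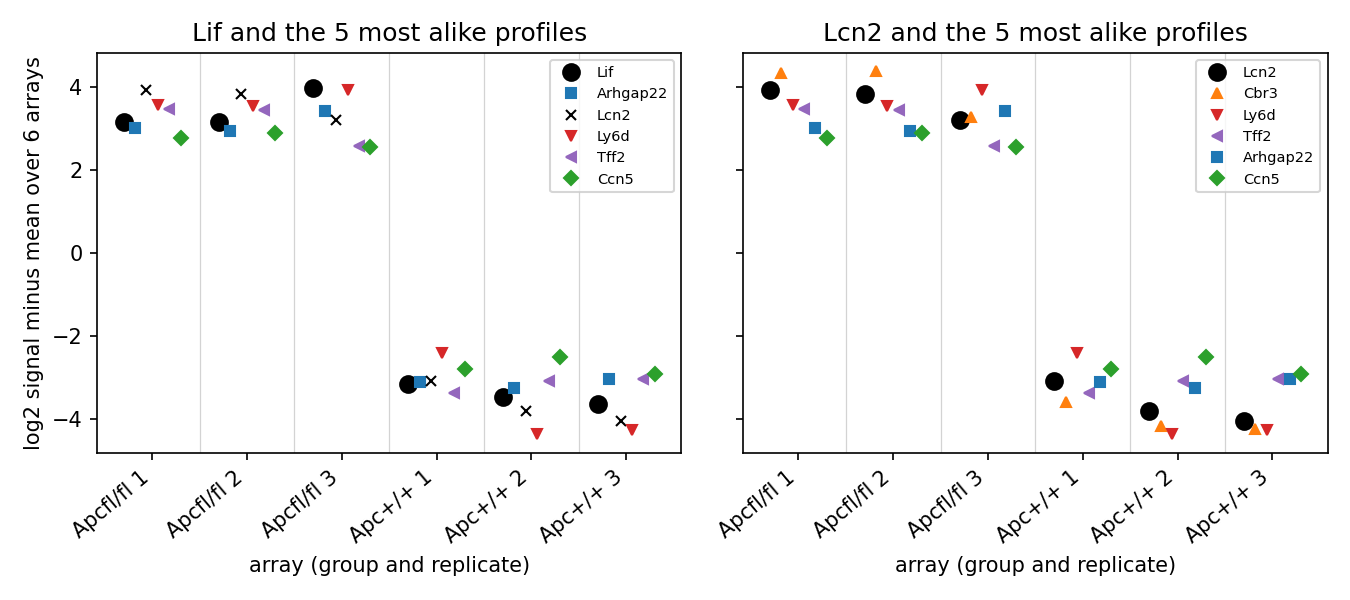
Normalised log2 signal minus the mean over the 6 arrays, per array, for Lif (left) and Lcn2 (right) as black circles and for the 5 named genes with the nearest profile in other symbols. All profiles separate the 3 Apcfl/fl from the 3 Apc+/+ arrays. Within the Apcfl/fl group, Lif, Arhgap22 and Ly6d are highest on replicate 3, and Lcn2, Cbr3, Tff2 and Ccn5 are lowest on it.

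The genomic surroundings of the 2 genes gave few named probes. Lif spans chr11:4257568-4272514 and Lcn2 chr2:32384637-32387739 in GRCm38.p6. Within 100 kb of Lif, 1 of 6 protein-coding neighbours was named. This was Castor1, which encodes an arginine sensor of the mTORC1 pathway and which rose by 2.42 on the log2 scale (adjusted p 0.0405 by limma), from 9.27, 8.59 and 8.57 to 11.06, 10.95 and 11.46. The cytokine gene Osm, a relative of Lif in the same interval, was not named. Within 100 kb of Lcn2, 2 of 8 neighbours were named and neither passed the threshold by limma, Golga2 with a difference of -1.20 (adjusted p 0.0634) and 1110008P14Rik with 1.46 (adjusted p 0.103).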

How the data were processed

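Liver RNA was depleted of rRNA, amplified from random primers, labelled with Cy3 and hybridised as cRNA to Arraystar mouse lncRNA arrays. The deposited scanner files, made by the authors with Agilent Feature Extraction 11.0.1.1, hold processed intensity per spot, with its error and flags, not normalised between arrays. The authors' deposited table holds log2 values, quantile normalised in GeneSpring GX, of the 4197 probes they had called, 2280 of them mRNA probes, and names those probes. Accessions were turned into symbols with a RefSeq table (GRCm38.p6), which matched 2239 of the 2280.

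Control, negative-control and outlier spots were left out. Processed intensities were taken to log2, averaged per probe and quantile normalised (59631 probes). A probe was tested when well above background on at least 3 of 6 arrays (45640 probes). Arrays with a mean chi-square below 1 against the Feature Extraction error, over 29685 probes, were averaged. Groups were compared as Apcfl/fl minus Apc+/+ with limma 3.58.1 in R 4.3.3 (lmFit, eBayes, two-sided), with Benjamini-Hochberg adjustment over all tested probes. The fit was tested on simulated data. A gene was represented by its brightest probe. Values after ± are SD. The number of arrays limits the precision, and p-values measure the spread between these samples, which may be technical.

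Lif, Lcn2 and the gene lists were chosen with earlier results of these data known. Named were Lif and Lcn2, every list gene with a named probe, and the 5 genes with the nearest profile to each. Neighbouring genes were added after their values were seen. Alternatives were normexp (offset 50, on median signals, since no mean signal was given), scaling to the 75th percentile, other filters on dim probes, 6 arrays as 6 samples, Apc+/+ replicates 2 and 3 averaged, replicate number or slide row as a block, eBayes with trend and robust, the methods' threshold and t-test, and leaving out each array.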

Additional observations from a re-analysis of the deposited data

How the results depend on the processing

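The log2 difference of Lif, 6.99, moved by more than the spread between replicates with normexp, to 4.88, without Apcfl/fl replicate 3, to 6.58, and without Apcfl/fl replicates 1 and 2 together, an alternative chosen after seeing the data, to 7.40. That of Lcn2, 7.20, did so only with the slide row as a block, to 6.63, which is its difference against Apc+/+ replicate 1 alone. Leaving out 1 array at a time gave 6.58 to 7.12 for Lif and 7.0 to 7.54 for Lcn2. Of 14 alternatives 11 stayed within that spread for Lif and 13 for Lcn2, and neither gene changed direction in any. No test is attached to these differences.

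Of the 28 further pathway genes, 5 passed the adjusted threshold higher and 1 lower, among 878 probes in all. The higher and lower counts became 6 and 8 with normexp (1651 probes in all), 4 and 0 with scaling to the 75th percentile (728), 1 and 0 without a filter on dim probes (277), 5 and 10 with probes well above background on all 6 arrays (1966), 5 and 7 by eBayes with trend and robust (1900), and 10 and 11 with 6 arrays as 6 samples (3441). They became 0 and 0, of 0 probes, with Apc+/+ replicates 2 and 3 averaged as well. Limma then gave 25 of the 28, and 4534 of all 45640 tested probes, an unadjusted p below 0.05 with a fold of at least 2. Most of the 28 had been selected at a similar threshold. The methods' threshold by limma gave 13 and 12 (5118 probes), the methods' t-test on 6 arrays gave 14 and 12 at that threshold (4802) and 6 and 6 after Benjamini-Hochberg adjustment (1629). Leaving out 1 array at a time gave 0 to 5 higher, 0 to 2 lower and 0 to 973 probes in all. Without Apcfl/fl replicate 3 they were 1, 2 and 361, and without Apc+/+ replicate 1, 2 or 3 no pathway gene passed by limma and at most 1 probe in all. By construction, other filters test another number of probes, and leaving out or averaging arrays gives fewer samples. The slide row as a block leaves Apc+/+ replicate 1 as the only Apc+/+ sample in the contrast. For the other differences the cause was not tested.

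Same-numbered arrays did not deviate together (correlations of 0.06, -0.07 and 0.04), and 4 of 6 arrays correlated best with their own number. The replicate number is therefore no known pairing. With it as a block on 6 arrays the counts were 5 and 4, among 1075 probes, and the differences of Lif and Lcn2 were 6.85 and 7.31.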
